A study of Canis lupus familiaris with 27 samples.

Results

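Chemokines and their receptors were followed as a family through 27 canine mammary carcinomas. The members were all genes whose array symbol began with CCL, CXCL, CX3CL, XCL, CCR, CXCR, CX3CR, XCR or ACKR and ended in a number, and 41 of the 15115 genes with a symbol of their own met this rule. They comprised 27 ligands (20 of the CC class, 6 CXC and CX3CL1) and 14 receptors (8 CC, 3 CXC, XCR1 and the atypical receptors ACKR2 and ACKR3). Where a gene had several probe sets, which held for 16 members, the one of highest mean over the tumors stood for it.

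The study compared 13 metastatic carcinomas, from dogs with lymph node metastases at surgery, with 14 non-metastatic carcinomas, from dogs with tumor-free nodes. All were invasive simple carcinomas, which are formed by 1 type of tumor cell, and 1 array was hybridized per tumor. By the labels 7 metastatic tumors were of grade III and 6 of grade II, against 9 and 5 non-metastatic tumors, and the dogs were 9 to 16 and 9 to 15 years old. The non-metastatic tumors had been selected for size, so that they measured 2 to 15 cm (median 3.5 cm), while the metastatic tumors measured 0.5 to 5 cm (median 3 cm). The tissue had been macrodissected to a high content of carcinoma cells, but it was bulk tissue, in which fewer cells of a type and less RNA per cell cannot be told apart. Tumors are named here by group and number, M1 to M13 for metastatic and N1 to N14 for non-metastatic. The dog of N12 later developed lung metastases.

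Chemokines are small secreted proteins that attract cells along a gradient, and they are classed by the spacing of their first cysteines as CC, CXC or CX3C. Their receptors span the membrane and couple to G proteins, whereas the atypical receptors take up ligand without that coupling. Inflammatory chemokines bring monocytes, neutrophils and effector T cells into damaged tissue, and the homeostatic ones place lymphocytes and dendritic cells in lymph nodes. The node ligands CCL19 and CCL21 act on CCR7, which also guides dendritic cells into lymphatic vessels.

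Values are log2 signals, so that a difference of 1 is a doubling. The upper quartile of an array was 7.88 to 8.00 in metastatic and 7.52 to 7.92 in non-metastatic tumors, and 4 non-metastatic arrays (N2, N10, N12 and N13) lay under 7.6. The GAPDH control, whose 3′ minus 5′ signal reflects RNA integrity, gave 1.84 ± 0.32 in metastatic and 1.32 ± 0.42 in non-metastatic tumors (SD, n = 13 and 14). The sample names ended in the letter T in 11 of 13 metastatic and 0 of 14 non-metastatic tumors, and what the letter stands for is not given in the sources used here. Of 10 epithelial markers, 0 lay under the median of all values in every tumor. As for other cells, 3 tumors stood apart in the mean level of 14 T and NK cell markers, with 7.6 in M4, 6.67 in M13 and 8.07 in N12, while the next was M7 with 5.72. Results that rest on these 3 tumors are given with and without them.

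The median of all array values was 3.66, and each member was placed above or below it in each tumor. Signals of different probe sets are not comparable as amounts of RNA, and a signal under that median can be unspecific binding. In every tumor 14 members lay above the median, 13 of them ligands and the other the receptor ACKR3. Among these CXCL16, a membrane-bound ligand that is also a scavenger receptor, kept to 8.78 to 13.29, and CCL23, a ligand of CCR1, to 9.95 to 14.18. CXCL12, the stromal ligand that holds stem cells in bone marrow, ranged over 7.11 to 11.21. CXCL10, which interferon induces and which draws T cells through CXCR3, spanned 5.26 to 14.68.

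Receptors lay low. Of the 14 receptors 8 were under the median of all values in every tumor, against 4 of the 27 ligands (CCL1, CCL16, CCL26 and CX3CL1). These 8 were CCR4, CCR6, CCR7, CCR8, CCR9, CXCR5, XCR1 and ACKR2. XCR1, which marks cross-presenting dendritic cells, stayed within 1.76 and 1.94, and CCR4, a receptor of helper and regulatory T cells, within 1.88 and 1.98. CXCR5, the follicle-homing receptor of B cells, stayed within 1.87 and 2.05, CCR9, a gut-homing receptor, within 1.88 and 2.05 and CX3CL1, the only CX3C ligand, within 2.00 and 2.59. The values of XCR1, CCR4, CXCR5, CCR9 and CX3CL1 thus spanned at most 0.59 log2 units each. CCR6 and CCR7 spread more widely, over 2.03 to 3.13 and 2.24 to 3.47.

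**Figure D1:**
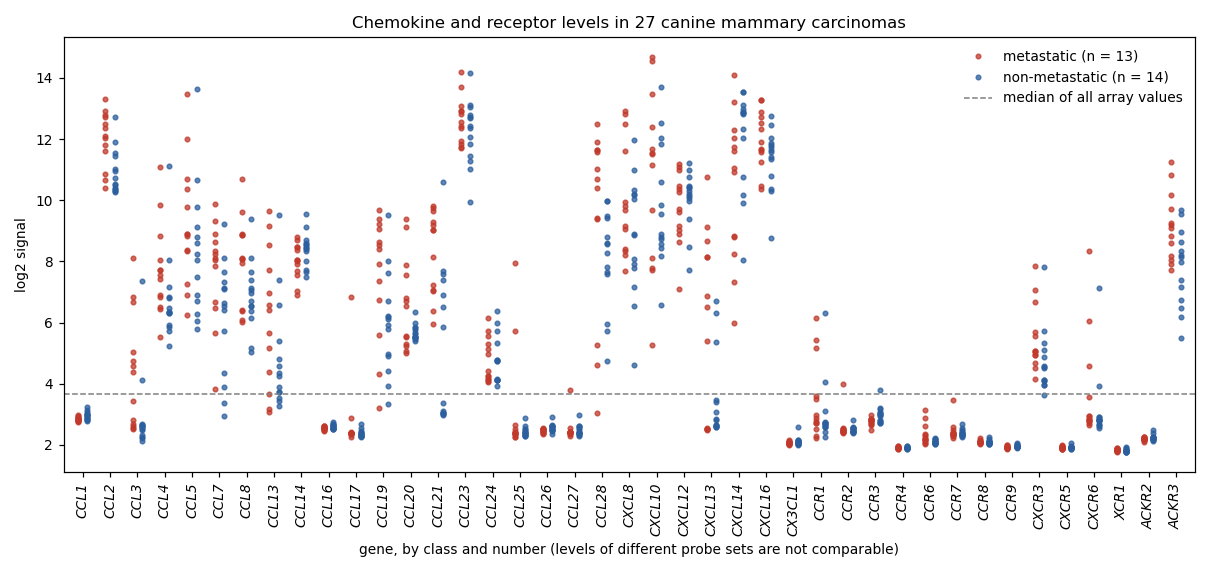
Log2 signal of the 41 chemokine and receptor genes in each of 27 tumors, 1 point per tumor, metastatic (n = 13) left of non-metastatic (n = 14) within each gene. The dashed line is the median of all array values, 3.66: most CCR genes stay under it, ACKR3 lies above it in every tumor, and CXCR3, CXCR6 and CCR1 reach well above it in some tumors.

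The remaining 15 members, 10 of them ligands, fell on both sides of the median. Several were raised in 1 or 2 tumors only. CCL25, a thymus and gut ligand of CCR9, reached 7.96 in M11 and 5.73 in M12, against at most 2.89 in each other tumor. CCL17, which draws CCR4-bearing T cells, reached 6.84 in M11 and at most 2.89 in any other tumor. CCR2, the monocyte receptor of CCL2, reached 3.98 in M7 and at most 2.83 elsewhere, and CCL27, a skin ligand, reached 3.79 in M8. By their means CCL25 (difference 0.64), CCL17 (0.37), CCR2 (0.070) and CCL27 (0.027) had adjusted p of at least 0.324 in the lymph node comparison described next.

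The lymph node comparison asked which genes differ between carcinomas that had and had not spread to the nodes. CCL21, CCL2 and ACKR3 were higher in metastatic tumors and 0 members were lower (limma, adjusted p under 0.05 over all genes). The 3 called members are 7.32% of the 41, while 17.8% of all genes were called in either direction. In the upward direction 10.6% of all genes were called, and in the downward direction 7.27%. The share of chemokine genes called lay under that of all genes, a gap that was not tested. At an unadjusted p under 0.05, 10 members were higher and 3 lower, against 18.6% and 15.7% of all genes (34.4% in either direction). With its 21 members of a mean above the median of all values, the family had 3 calls or 14.3%, beside 16.9% of the genes of that brightness called higher.

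The median difference, metastatic minus non-metastatic, was 0.42 on the log2 scale over the 41 members and -0.0019 over all genes. It was positive in 30 members, against 49.6% of all genes. In the fit blocked on name endings the difference was positive in 14 members, and its median over all genes was -0.0485. That fit rests on 2 metastatic tumors, M1 and M2, beside 14 non-metastatic ones, and it called 0.0662% of all genes. The 27 ligands had a median difference of 0.86 and the 14 receptors one of 0.037. Signal level went with this, as 8 of the receptors and 4 of the ligands lay under the median of all values in every tumor. These 12 members had a median difference of -0.016, against 0.98 in the 21 members of a mean above that median. Bright genes as a whole also had a positive median. In the fit limited to probe sets above the median brightness, which kept 21 members, it was 0.184 over 8765 genes. The gap between the family and the bright genes was not tested. The metastatic and non-metastatic tumors overlapped for each of the 41 members, while 9 of all genes (0.0595%) did not overlap.

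**Figure D2:**
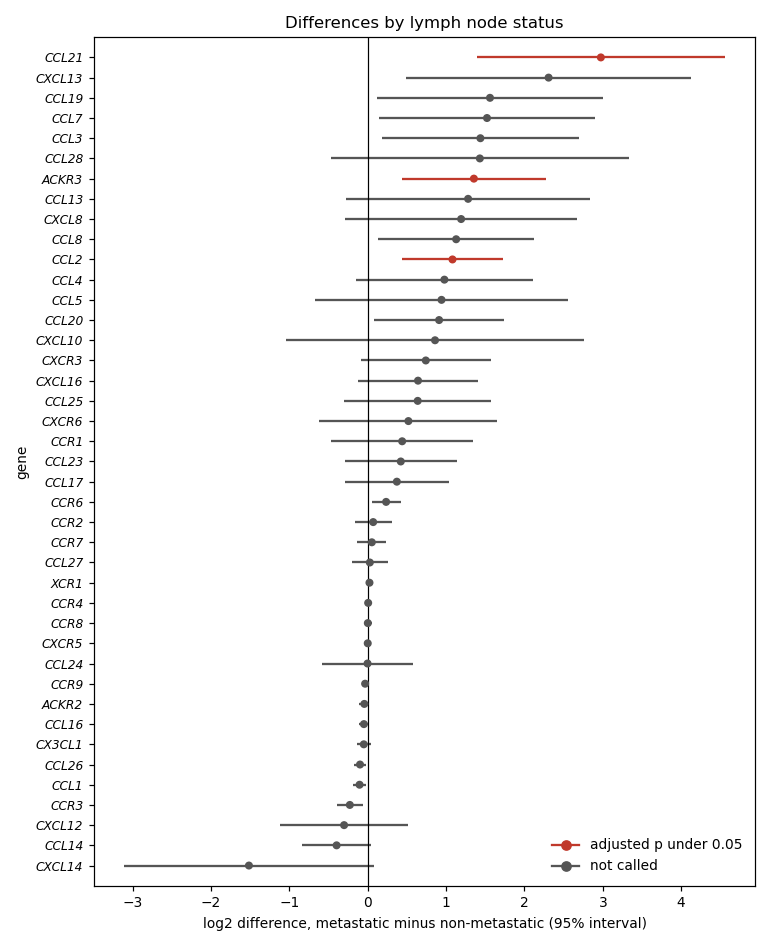
Log2 difference, metastatic minus non-metastatic, of each member with its 95% interval, ordered by size. The intervals of CCL21, ACKR3 and CCL2 are marked as called, and the wide intervals of CXCL13, CCL19 and CXCL14 come with adjusted p of 0.069, 0.115 and 0.167.

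CCL21, a lymph node and lymphatic vessel ligand of CCR7, had a lowest, median and highest value of 5.95, 9.04 and 9.80 in metastatic tumors, against 2.99, 4.62 and 10.58 in non-metastatic tumors. In 7 non-metastatic tumors the signal lay under the median of all values (N1, N3, N5, N8, N10, N12 and N14), and in 0 metastatic tumors, while the highest value belonged to N6. The means were 8.27 ± 1.37 and 5.30 ± 2.51 (SD, n = 13 and 14), 2.97 higher on the log2 scale (standard error 0.77, limma adjusted p = 0.0102), and 13 of 13 metastatic tumors lay above the non-metastatic median.

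CCL19 is the other CCR7 ligand. Its values were 3.2, 8.40 and 9.68 in metastatic tumors and 3.33, 6.02 and 9.53 in non-metastatic tumors (lowest, median, highest). The groups covered nearly the same range, with M1 the lowest of all, and the difference of 1.56 (standard error 0.70, adjusted p = 0.115) was not called. Their receptor CCR7 stayed between 2.24 and 3.47 in metastatic and between 2.27 and 2.68 in non-metastatic tumors.

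CXCL13, the B cell follicle ligand of CXCR5, split the tumors into low and high ones. It had 2.48, 6.52 and 10.74 in metastatic tumors, against 2.58, 2.84 and 6.70 in non-metastatic tumors (lowest, median, highest). The signal was under the median of all values in 5 of 13 metastatic and 11 of 14 non-metastatic tumors, and 6 metastatic tumors exceeded the highest non-metastatic one, N12. The 5 low metastatic tumors were M1, M2, M6, M8 and M9. The difference of 2.31 (standard error 0.89) had an adjusted p of 0.069 and was called without N12 (2.55, adjusted p = 0.0442), a call that also came with any 1 of those 5 low tumors left out. The second CXCL13 probe set gave 0.98 (unadjusted p = 0.124), and its signal over the tumors correlated with the first at r = 0.88.

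**Figure D3:**
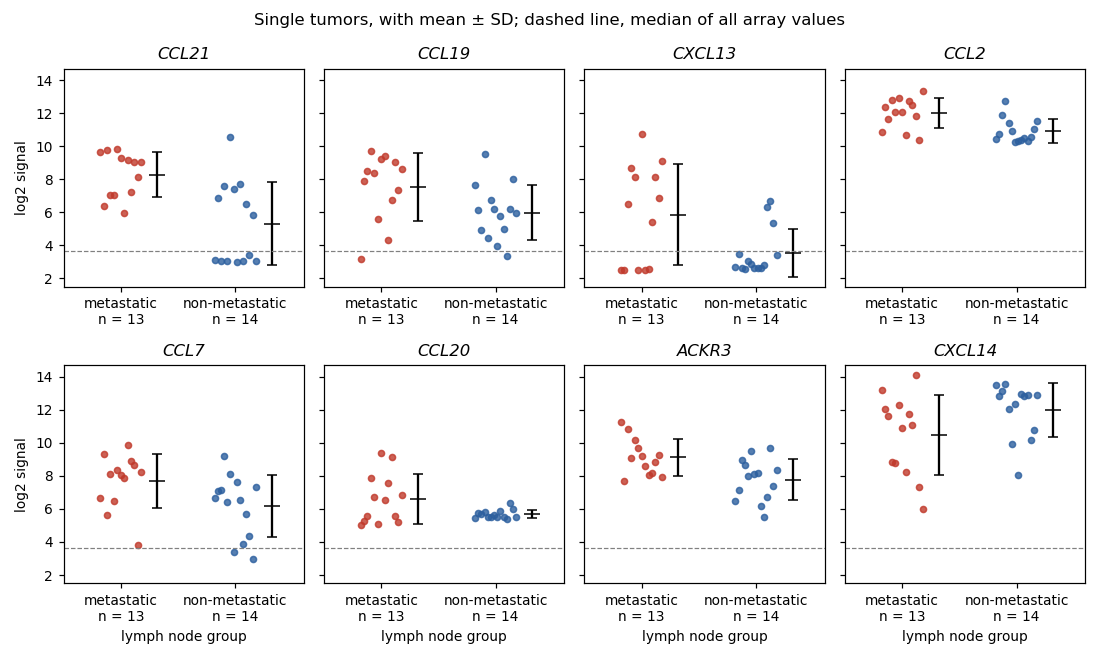
Log2 signal of 8 members in single tumors, metastatic (n = 13, left) and non-metastatic (n = 14, right), with mean ± SD beside the points and the median of all array values dashed. CCL21 is under the dashed line in 7 non-metastatic tumors, CXCL13 is low in 5 metastatic and 11 non-metastatic tumors, and CCL20 is spread among the metastatic tumors only.

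CCL2, the main attractant of monocytes, had 10.40, 12.09 and 13.32 in metastatic tumors and 10.26, 10.63 and 12.73 in non-metastatic tumors (lowest, median, highest). The signal was strong in every tumor, 12 of 13 metastatic tumors lay above the non-metastatic median, and N4 was the high exception among the non-metastatic tumors. The means were 12.01 ± 0.91 and 10.93 ± 0.73 (SD, n = 13 and 14), a difference of 1.08 or 2.12-fold (standard error 0.31, adjusted p = 0.0185).

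The other monocyte attractants CCL7, CCL8 and CCL13 share receptors with CCL2. CCL7 had 3.83, 8.13 and 9.89 in metastatic tumors and 2.96, 6.59 and 9.22 in non-metastatic tumors, a difference of 1.52 (standard error 0.67, adjusted p = 0.108). CCL8 differed by 1.13 (standard error 0.48, adjusted p = 0.102) and CCL13 by 1.28 (standard error 0.76, adjusted p = 0.233). None of the 3 was called, and CCL13 was highest in M3, N4, M1 and M2, a set of both groups. CCL7 was called only when M12, its lowest metastatic tumor, was left out (adjusted p = 0.0438).

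CCL3, CCL4 and CCL5 are inflammatory attractants of T cells and monocytes. CCL3 had 2.51, 4.40 and 8.12 in metastatic tumors, against 2.12, 2.59 and 7.37 in non-metastatic tumors, and lay under the median of all values in 6 of 13 and 12 of 14 tumors. N12 carried the highest non-metastatic value by far, and the difference was 1.44 with it (standard error 0.61, adjusted p = 0.0996) and 1.78 without it (adjusted p = 0.0202). For CCL4 the difference was 0.98 (adjusted p = 0.211) and for CCL5 0.94 (adjusted p = 0.402). CCL5 was highest in N12 with 13.65, followed by M4 with 13.48 and M13 with 12.00.

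CCL20 attracts CCR6-bearing dendritic cells and lymphocytes. It had 5.01, 6.53 and 9.39 in metastatic tumors, against 5.40, 5.59 and 6.36 in non-metastatic tumors. The non-metastatic tumors lay close together (SD 0.26, n = 14) and the metastatic ones did not (SD 1.51, n = 13), with 7 above and 4 below every non-metastatic tumor. The difference in means was 0.91 (standard error 0.40, adjusted p = 0.109). Its second probe set gave 0.52 (unadjusted p = 0.416) and followed the first at r = 0.55 only.

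CCL28, an epithelial ligand of mucosal and glandular tissue, showed a similar spread to both sides. It had 3.06, 10.68 and 12.49 in metastatic tumors and 4.74, 8.41 and 9.99 in non-metastatic tumors. As many as 8 metastatic tumors exceeded every non-metastatic tumor, while M3 and M7 lay below every one, and the difference of 1.43 (standard error 0.92) had an adjusted p of 0.275.

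CXCL8, the neutrophil attractant also named interleukin-8, had 7.69, 9.69 and 12.92 in metastatic and 4.61, 8.89 and 11.96 in non-metastatic tumors, a difference of 1.19 (standard error 0.72, adjusted p = 0.244). M10, M2 and M6 exceeded every non-metastatic tumor. Another CXCL8 probe set (r = 0.95 with the first) gave 2.10 (unadjusted p = 0.0227). For CXCL10 the difference was 0.86 (standard error 0.93, adjusted p = 0.524), and its 95% interval ran from -1.04 to 2.76. The second CXCL10 probe set gave 1.46 (unadjusted p = 0.20). CXCL16 differed by 0.64 (adjusted p = 0.226) and CXCL12 by -0.30 (adjusted p = 0.608).

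CXCL14, a ligand made by normal epithelium and stroma, was the member of largest negative difference. It had 5.99, 11.05 and 14.10 in metastatic tumors, against 8.04, 12.83 and 13.53 in non-metastatic tumors. M12 and M13 lay below every non-metastatic tumor, but M11 was the highest of all, and the difference of -1.52 (standard error 0.78, adjusted p = 0.167) was not called. Its second probe set agreed closely over the tumors (r = 0.997) and gave -1.63 with an unadjusted p of 0.0476. CCL14, a ligand of CCR1, differed by -0.40 (adjusted p = 0.195), and by 0.22 with its second probe set (unadjusted p = 0.643), so that its 2 probe sets differed in sign. The difference was close to 0 for CCL24, an eosinophil attractant (-0.0023, adjusted p = 0.996). CCL23 differed by 0.42 (adjusted p = 0.398).

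ACKR3 was the receptor called. It binds CXCL12 without G protein coupling and clears it, and vessels and tumor cells are known to make it. Its values were 7.71, 9.09 and 11.25 in metastatic tumors, against 5.50, 8.06 and 9.68 in non-metastatic tumors (lowest, median, highest). M1, M3, M5 and M6 exceeded every non-metastatic tumor and 6 non-metastatic tumors lay below every metastatic one. The means were 9.13 ± 1.11 and 7.78 ± 1.26 (SD, n = 13 and 14), a difference of 1.35 or 2.56-fold (standard error 0.45, adjusted p = 0.0376).

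The signalling receptors showed smaller differences. CXCR3, the receptor of CXCL10 on effector T cells, had 4.17, 5.06 and 7.85 in metastatic and 3.64, 4.53 and 7.83 in non-metastatic tumors, a difference of 0.74 (standard error 0.40, adjusted p = 0.196). M4 and N12 were its highest tumors, nearly level with each other. CXCR6, which binds CXCL16 on T and NKT cells, differed by 0.52 (adjusted p = 0.518) and CCR1 by 0.44 (adjusted p = 0.491). Both were under the median of all values in 10 of 13 metastatic and 12 of 14 non-metastatic tumors.

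Some dim receptors and ligands had small differences near the threshold. CCR6, the receptor of CCL20, had 2.04, 2.21 and 3.13 in metastatic and 2.03, 2.10 and 2.21 in non-metastatic tumors, a difference of 0.23 (standard error 0.090, adjusted p = 0.068). CCR3, the eotaxin receptor of eosinophils, differed by -0.23 (standard error 0.083, adjusted p = 0.054), CCL1, the CCR8 ligand, by -0.10 (adjusted p = 0.079), and CCL26, an eotaxin, by -0.098 (adjusted p = 0.082). For CCR3 the mean was 2.77 ± 0.11 in metastatic tumors (SD, n = 13), 3.27 ± 0.35 in the 4 non-metastatic arrays of low upper quartile and 2.89 ± 0.16 in the other 10. CCL26 had 2.47 ± 0.06, 2.70 ± 0.14 and 2.52 ± 0.07 in the same order. For CCR3 and CCL26 the 4 arrays of low upper quartile thus lay farther from the metastatic mean than the other 10. CCL1 had 2.86 ± 0.07, 3.06 ± 0.06 and 2.92 ± 0.13 in that order. CCR6 went the other way, with 2.34 ± 0.33, 2.16 ± 0.08 and 2.09 ± 0.04. A second CCR3 probe set gave -0.022 (unadjusted p = 0.425). In the other 9 members that lay under the median of all values in every tumor, the difference ran from -0.050 for CX3CL1 to 0.052 for CCR7.

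The 3 called differences depended on what else entered the fit. CCL21 and CCL2 were called in all 27 fits that left out 1 tumor, with adjusted p up to 0.0186 and 0.0328. ACKR3 was called in 15 of these and lost with any of M1, M3, M5, M6, M7, M12, N1, N2, N9, N10, N11 or N13 left out, at an adjusted p of at most 0.0634. When each array's upper quartile entered as a covariate, 0 members were called (CCL21 2.18, adjusted p = 0.207), and likewise with age and tumor size (CCL21 2.11, adjusted p = 0.135). Calls over all genes fell as well, from 17.8% of the genes to 5.28% and 4.22% in these fits. Without the 4 arrays of low upper quartile, a setting chosen after seeing the data, CCL21 (2.77, adjusted p = 0.0371) and CCL4 were called, beside 13.1% of all genes. Among names without the final T, where 2 metastatic tumors remained beside 14 non-metastatic ones, the differences were 2.71 for CCL21, 0.68 for CCL2 and 1.7 for ACKR3, with adjusted p of at least 0.576. Name ending and lymph node status cannot be told apart for the 11 metastatic tumors whose names end in T.

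Markers of other cells were read in the same comparison, in which 17.8% of all genes were called. The share called was 6.67% of macrophage, 23.1% of endothelial and 50% of smooth muscle and myoepithelial markers, and 0% in each other list. All 15 macrophage and monocyte markers had a positive difference (median 0.54), of which MARCO, a scavenger receptor, was called (1.96, adjusted p = 0.0155), and their summed level ran from 122 to 158 in metastatic and from 110 to 157 in non-metastatic tumors. Of 14 T and NK cell markers 11 were positive (median 0.28) and 0 were called, with sums of 53.0 to 106 and 49.7 to 113, and 2 of them lay under the median of all values in every tumor. With both marker levels as covariates CCL21 was still called (3.05, adjusted p = 0.0226), while CCL2 (0.85, adjusted p = 0.0796) and ACKR3 (1.00, adjusted p = 0.140) were not. Endothelial markers had FLT1 (1.28, adjusted p = 0.0207) and PECAM1 (1.00, adjusted p = 0.0405) higher and TEK (-1.02, adjusted p = 0.0124) lower, of 13 measured, with sums of 66.4 to 94.3 and 60.6 to 80.2. LYVE1, a marker of lymphatic vessels, differed by 1.48 (adjusted p = 0.0597). Of 8 smooth muscle and myoepithelial markers 4 were lower in metastatic tumors, led by MYH11 (-3.88, adjusted p = 0.0018), with sums of 56.6 to 75.5 and 62.3 to 91.8. Of 10 B and plasma cell markers 0 were called, with sums of 47.4 to 64.5 in metastatic and 45.3 to 51.8 in non-metastatic tumors. Likewise 0 of 7 neutrophil, 0 of 9 dendritic cell, 0 of 10 fibroblast and 0 of 10 epithelial markers were called. A positive difference throughout was not particular to macrophage markers. All 10 fibroblast and all 10 epithelial markers had one too (medians 0.53 and 0.54), as had 9 of 13 endothelial markers (median 0.60). All 8 smooth muscle and myoepithelial markers had a negative difference (median -1.41). Apart from these covariates, the part of the other cells in the chemokine differences was not tested.

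Many chemokine genes were high together in the same few tumors. Among the 29 members that reached the median of all values in some tumor, M4 was in the top 3 tumors for 12 members, N12 for 11 and M13 for 10, whereas M7, M8, M3 and M6 had 5 each. M4 and N12 shared CCL3, CCL4, CCL5, CCL8, CXCL10, CCR1, CXCR3 and CXCR6 in these lists. They are the tumors of highest T and NK marker level, and they belong to different lymph node groups. Without M4, M13 and N12, a setting chosen after seeing the data, 3 members were called, beside 15.2% of all genes. They were CCL21 (2.87, adjusted p = 0.026), ACKR3 (1.62, adjusted p = 0.0236) and CCL3 (1.22, adjusted p = 0.0405). CCL2 was then at 0.86 (adjusted p = 0.0682).

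**Figure D4:**
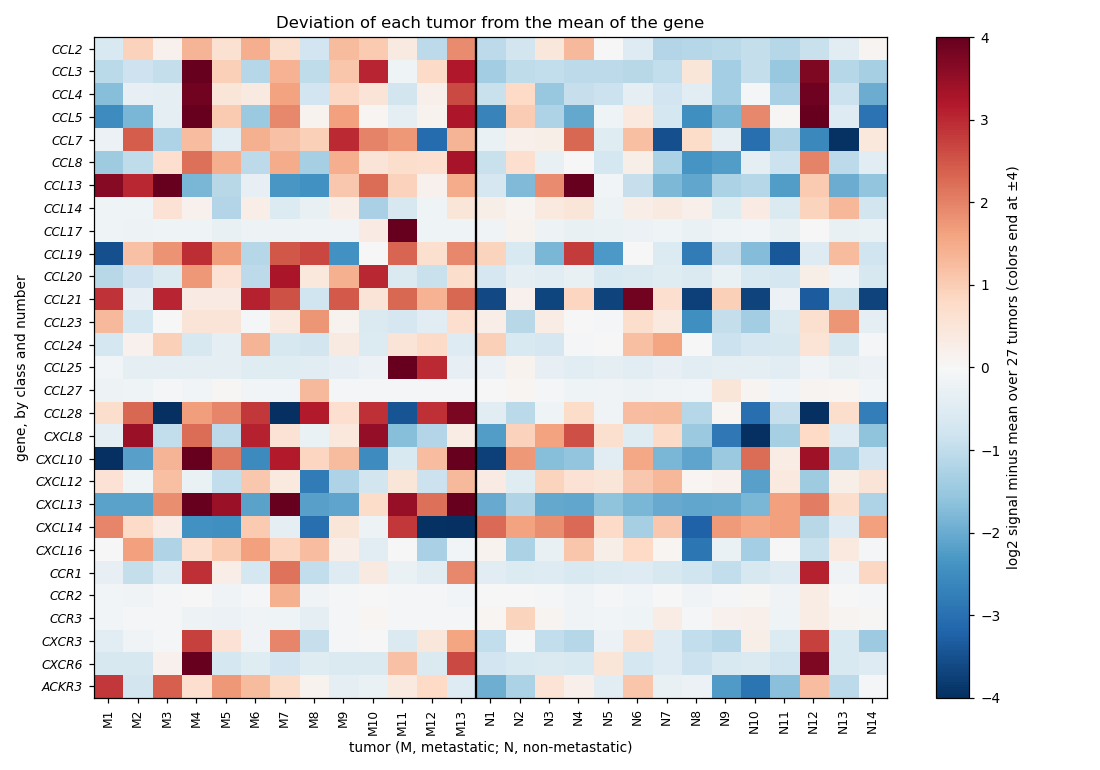
Deviation of each of 27 tumors from the mean of the gene, in log2 units, for the 29 members that reach the median of all values in at least 1 tumor, with metastatic tumors left of the line and non-metastatic tumors right of it. M4, M13 and N12 are high in CCL3, CCL4, CCL5, CXCL10 and CXCR6, and CCL21 is low in 7 non-metastatic tumors.

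Known ligand and receptor pairs were then compared over the 27 tumors, as were members with a marker of a cell type or an inducer. There were 22 and 26 such pairs, and Pearson's r passed an adjusted p of 0.05 over all 48 in 4 and 15 of them (two-sided permutation tests with 100000 resamples). CXCL10 and CXCR3 had r = 0.76 (rho 0.70, adjusted p = 0.00024 and 0.0014). It was 0.67 without the 2 tumors farthest from the CXCL10 median, 0.72 within metastatic and 0.81 within non-metastatic tumors. Without M4, M13 and N12 it was 0.62 (adjusted p = 0.0127). CXCL10 also correlated with IRF1, an interferon-induced transcription factor (r = 0.67, rho 0.62, adjusted p = 0.00053 and 0.0046).

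Other strong pairs depended in part on the 3 tumors rich in T cell markers. CXCR6 and CD3E, a chain of the T cell receptor complex, had r = 0.85 (adjusted p = 0.00053) but rho = 0.45 (adjusted p = 0.064), and r = 0.17 without the 3 tumors (adjusted p = 0.585). CCL3 and CCR1 had r = 0.82 but rho = 0.40 (adjusted p = 0.110), and r = 0.48 without the 3 tumors (adjusted p = 0.108). For CCL5 and CCR1 these values were 0.72, 0.40 and 0.26. None of these 3 pairs was called without the 3 tumors, where rho was 0.22, 0.15 and 0.15 in the order given. Without M4 and N12 only, r was 0.41, 0.64 and 0.46.

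CXCR3 and CCL5 followed CD3E more evenly. CXCR3 and CD3E had r = 0.80 and rho = 0.64 (adjusted p = 0.00024 and 0.0032), and CCL5 and CD3E r = 0.77 and rho = 0.63 (adjusted p = 0.00024 and 0.0035). Without the 2 tumors farthest from the median of the first gene r was 0.54 for both pairs (p = 0.0052 and 0.0051). Without M4, M13 and N12 it was 0.44 for both, with rho of 0.50 and 0.47 and an adjusted p of 0.108 for r.

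**Figure D5:**
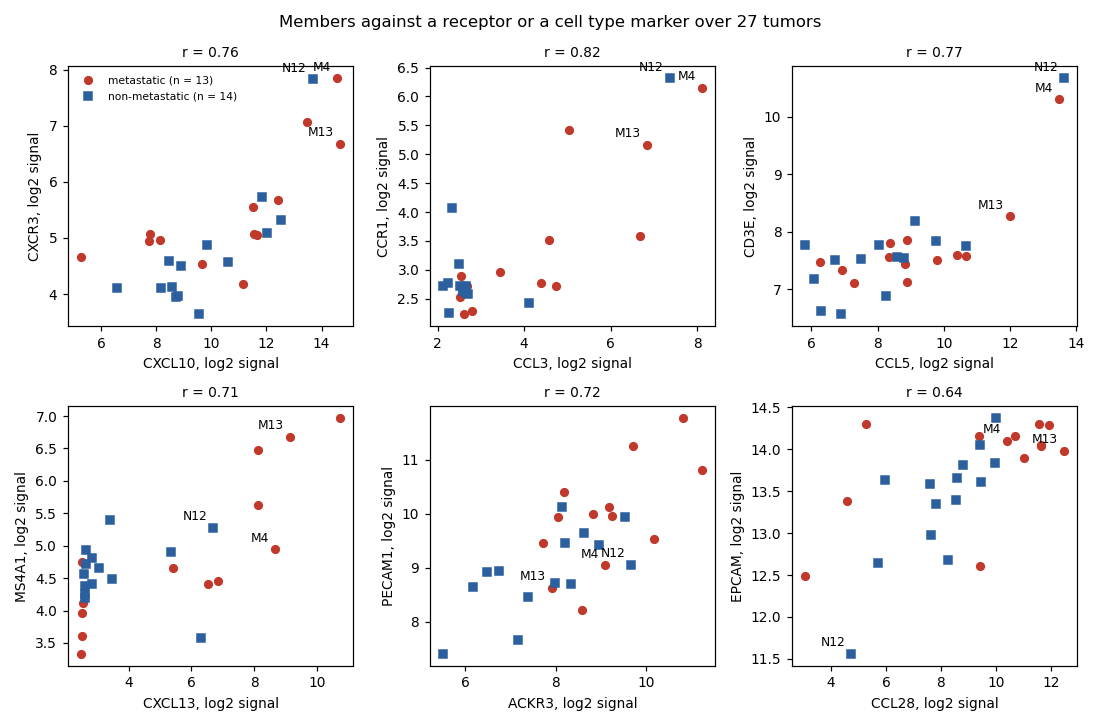
Log2 signals of 6 pairs of genes over 27 tumors, metastatic as circles (n = 13) and non-metastatic as squares (n = 14), with Pearson's r above each panel. M4, M13 and N12 lie at the upper ends for CXCL10 with CXCR3, CCL3 with CCR1 and CCL5 with CD3E, whereas ACKR3 with PECAM1 spreads over all tumors.

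Of the 26 pairs of a member with a marker or inducer, 8 were called both with and without M4, M13 and N12. CXCL10 with IRF1 was 1 of them, and the others follow. In these pairs each member was set against 1 gene of a cell type only. ACKR3 correlated with PECAM1, an endothelial adhesion molecule, at r = 0.72 (rho 0.68, adjusted p = 0.00024 and 0.0014), at 0.77 without M4, M13 and N12, and at 0.61 within metastatic and 0.68 within non-metastatic tumors. CXCL13 correlated with MS4A1, the B cell antigen CD20, at r = 0.71 (rho 0.69, adjusted p = 0.00053 and 0.0014). This was 0.85 within metastatic and 0.027 within non-metastatic tumors, a gap that was not tested. CCL28 and EPCAM, an epithelial adhesion molecule, had r = 0.64 (rho 0.66, adjusted p = 0.0020 and 0.0025), and 0.58 without the 3 tumors. CCL21 and LYVE1 had r = 0.57 (rho 0.61, adjusted p = 0.0084 and 0.0049), with 0.86 within metastatic and 0.17 within non-metastatic tumors, a gap that was not tested. CCL2 and CD14, a monocyte antigen, had r = 0.50 (rho 0.52, adjusted p = 0.0211 and 0.0237), and within the groups 0.39 (p = 0.187) and 0.38 (p = 0.177). CCR1 and the macrophage marker CSF1R had r = 0.52 (rho 0.51), and 0.56 without the 3 tumors. CCR6 and MS4A1 had r = 0.57 but rho = 0.29, and r = 0.056 without M7 and M11.

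Several known partners showed no clear relation. CCL21 and CCR7 had r = 0.020, CCL19 and CCR7 0.24, CXCL13 and CXCR5 0.19, CCL2 and CCR2 0.063 and CXCL16 and CXCR6 -0.014, with adjusted p of at least 0.435. In each of these pairs the receptor had little signal in most tumors. CXCL12 and ACKR3, both well above the median of all values, had r = 0.21 (rho 0.20, adjusted p = 0.468 and 0.490). CCL26 and CCR3 had r = 0.65 and rho = 0.90 (adjusted p = 0.0116 and 0.00048), with r = 0.77 within metastatic tumors (p = 0.00089) and 0.52 within non-metastatic tumors (p = 0.079), and 0.62 without M4, M13 and N12 (adjusted p = 0.0689). Both genes are dim, CCL26 being under the median of all values in every tumor.

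Chemokine genes lie in clusters, and neighbours in the dog gene order were compared after seeing the data. In the UU_Cfam_GSD_1.0 assembly CCL1, CCL13, CCL8, CCL7 and CCL2 are 5 consecutive genes, and CCL4, CCL3, CCL23, CCL14, CCL16 and CCL5 form a run of 6 members. CCL27, CCL19 and CCL21 also lie side by side or nearly so. Of 45 pairs within such runs 9 passed an adjusted p of 0.05. CCL4 and CCL5 had r = 0.89 (rho 0.81), CCL3 and CCL4 0.88 (rho 0.79) and CCL2 and CCL7 0.67 (rho 0.70). Without M4, M13 and N12 these were 0.71, 0.67 and 0.66, and these 3 were the pairs still called. The other 6 were not, among them CCL3 and CCL5 (r = 0.76, and 0.42 without the 3 tumors, adjusted p = 0.168) and CCR1 and CXCR6 (0.78 and -0.074). Near-identical chemokine genes can share probes, and this was not tested.

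Genes that act downstream of chemokine receptors gave few calls. Of 48 measured signalling genes 5 were higher, 1 was lower and the median difference was 0.051. PRKCB, a protein kinase C of leukocytes, differed by 1.65 (standard error 0.50, adjusted p = 0.0252), ELMO1, which joins receptors to Rac activation, by 1.15 (adjusted p = 0.0224), and FGR, a myeloid Src kinase, by 1.04 (adjusted p = 0.0196). The G protein subunit GNB2 was higher by 0.40, and RAC1, a GTPase of cell movement, by 0.24 (adjusted p = 0.0336 and 0.0438). PRKCZ, an atypical protein kinase C, was lower (-1.26, standard error 0.22, adjusted p = 0.00065). The 6 called genes make 12.5% of that list, beside the 17.8% of all genes.

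Of 15 adhesion genes by which leukocytes leave vessels, 3 were higher and 0 lower. This is 20% of the list, near the 17.8% of all genes called. ICAM2, an endothelial ligand of leukocyte integrins, differed by 1.58 (standard error 0.39, adjusted p = 0.0071), ITGA4, an integrin chain of lymphocytes and monocytes, by 1.32 (standard error 0.38, adjusted p = 0.0182) and PECAM1 by 1.00. Of 6 chemokines and relatives under other symbols 0 were called. RARRES2, which encodes chemerin, had a difference of 1.33 (adjusted p = 0.126) and PPBP, a platelet chemokine, one of -0.98 (adjusted p = 0.105).

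Grade was compared over both lymph node groups, with node status as a block. In 16 grade III against 11 grade II tumors 0 of 41 members were called by limma, and 0% of all 15115 genes. At an unadjusted p under 0.05 there were 0 higher and 2 lower members, beside 5.85% of all genes. The difference was positive in 30 of 41 members and in 60.3% of all genes. The 2 lower members were CCL28, with 3.06, 8.11 and 11.64 in grade III and 7.82, 9.97 and 12.49 in grade II tumors (difference -2.29, standard error 0.85), and CCL23, with 9.95, 12.24 and 13.05 against 11.83, 12.93 and 14.18 (difference -0.84, standard error 0.32). In 4 of 16 grade III tumors CCL28 lay above the grade II median, and both genes had an adjusted p of 0.738. All 10 epithelial markers had a negative difference in grade III tumors as well (median -1.22, 5 at an unadjusted p under 0.05, 0 called), and their part in the CCL28 difference was not tested. For 1 non-metastatic tumor labelled grade II the sources disagree, another of them listing it as grade III, and with that grade 0 members were called too. The difference by lymph node status was not called as different between grades for any member (limma interaction term, 0 called among all genes). At an unadjusted p under 0.05 there were 0 of 41 members, beside 2.66% of all genes.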

How the data were processed

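RNA of 27 tumors was hybridized singly to Affymetrix Canine Genome 2.0 arrays. The authors processed the arrays in Partek with its GCRMA workflow (RMA background correction, quantile normalization, median polish). The files hold deposited log2 signals per probe set, which were used unchanged. After 175 control probe sets were left out, 42860 were fitted, and 15115 genes named by 29254 probe sets of 1 symbol were represented by the probe set of highest mean. Of the others 439 had several symbols, 1 of them CXCR1 and CXCR2, and 13167 none. Group differences were fitted in R 4.3.3 by limma 3.58.1 with Benjamini-Hochberg adjustment over genes, and checked on simulated data. Pearson and Spearman permutation tests (100000 resamples, smallest possible p 1e-05) were run with numpy 2.4.6 in Python 3.11.15. The number of arrays limits precision. Replicates are tumors of different dogs. Full statistics were given for called members and the 10 of largest difference, levels for the 5 members of highest and lowest mean, the 8 pairs of largest r, and called genes of each list. Cell type and pathway lists came from general knowledge. The members and lists were chosen with earlier results of these data known. Alternatives covered test, weights, scaling, filter, probe set, covariates and samples. Gene order was taken from the RefSeq annotation of UU_Cfam_GSD_1.0, and no sequence was used.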

Additional observations from a re-analysis of the deposited data

How the results depend on the processing

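The number of members called higher in metastatic tumors was 3 by limma, where 17.8% of all genes were called in either direction. It was 8 with array weights (19.4% of all genes) and 8 without the non-metastatic dog with later lung metastases, N12 (19.3%). With T and NK and macrophage levels as covariates it was 1, CCL21 (14.2%). It was 0 with age and tumor size (4.22%), the ending of the sample name (0.0662%) or the array's upper quartile (5.28%) in the fit. Leaving out 1 tumor at a time gave 2 to 8 higher and 0 to 2 lower, N12 giving the 8, beside 14.6% to 19.3% of all genes. The number called lower was 1 (CCR3), against 0, with the probe set of largest variance or adjustment over all probe sets. In these settings 22.4% and 19.2% of all genes were called. The methods' analysis of variance called the same 3 genes, here with Benjamini-Hochberg adjustment where the study used the q-value method. With that adjustment, 383 of the 42860 probe sets passed the study's limits of 1.7-fold and 0.001. None of the 59 member probe sets was among them. ACKR3 was lost with array weights (1.03, adjusted p = 0.0832) and a second quantile normalization (1.20, adjusted p = 0.0723). With the name ending as a block, the difference rests on 2 metastatic tumors, M1 and M2, beside 14 non-metastatic ones. The names of all these tumors lack the final T. The difference was then -1.03 for CXCL13, -0.43 for CCL19, 0.64 for CXCL14 and -0.27 for CCL3, opposite in sign to the fit without the block. Why M1 and M2 differ from the other metastatic tumors was not tested. The 5 signalling and 3 adhesion genes called higher became 0 and 0 with age and size, and the 1 signalling gene called lower became 0 with the probe set of largest variance. Correlation called 4 ligand-receptor and 15 member-marker pairs over all tumors. Without M4, M13 and N12 the counts were 1 and 9, of which 1 and 8 were called over all tumors too. They were 1 and 3 within non-metastatic tumors, and 7 member-marker pairs were called within metastatic tumors. For grade and its interaction the count was 0 in every setting run. No paired analysis was possible because the tumors come from different dogs and their numbers follow accession order only.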
